A study of Caenorhabditis elegans with 2 samples.

Results

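The genes described here are 43 genes of Wnt signalling, of the polarity of the T blast cell and of the shaping of the male tail tip in the nematode Caenorhabditis elegans, out of 19973 protein-coding genes on the nuclear chromosomes. They were listed by name because the zinc finger gene tlp-1 is known to act in the asymmetric T cell division and in tail tip shaping, and all 43 names matched the annotation. Whole L1 larvae of mixed sex and strain OP321, which carries the insertion wgIs321 with eGFP-tagged tlp-1 and the unc-119 allele tm4063, were profiled by chromatin immunoprecipitation sequencing (ChIP-seq). There were 2 biological replicates in a single group, both with the insertion, so that no groups could be compared. A region was given to a gene when its summit lay in the gene body or within 2000 bp of an annotated transcription start site (TSS) of that gene. Because whole animals were assayed, strong binding in few cells, such as the T cells, and weak binding in many cannot be told apart.

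Wnt proteins are secreted ligands that signal through Frizzled and related receptors. In the C. elegans tail, the Wnt LIN-44 and the Frizzled receptor LIN-17 orient the division of the T cell, and the daughters come to differ in the level of the TCF factor POP-1 and of its partner, the beta-catenin SYS-1. Chromatin proteins and posterior Hox genes are also known to be needed for the T cell, while DM-domain genes and their regulators direct the later retraction of the male tail tip, a process that follows long after the L1 stage.

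On the ce11 build, the authors' list for replicate 1 had 28183 regions, that for replicate 2 had 23975, and the list of both pooled had 11633. They are labelled as peaks and background before thresholding. A list thresholded by reproducibility held 328 regions, which were the 328 of highest signal in the pooled list. The signal is the authors' value for a region and has no stated scale, so it is compared within a list only, and rank 1 is the highest signal of a list. The lists give no read counts. The depth is therefore unknown, and a pooled signal has no replicate error. The gene tlp-1 itself had 0 regions by the same rule in each of the 4 lists. The tagged gene is known from the labels alone, and the libraries are called those labelled tlp-1. Nearly all regions had the same width, 320 bp for 99.7% of the pooled list.

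The stretches below show the DNA within 50 bp of the summit. They come from the 2 members of highest signal, which carry the main result, and from a pair of beta-catenin genes. The gene wrm-1 is shown with its best pooled region alone. The gene bar-1 is shown with both of its pooled regions, of which the stronger holds no site. Capitals mark GATA sites, searched as WGATAR on both strands (A or T, then GATA, then A or G, or the reverse complement on the strand shown), with overlapping sites counted separately. Of the 11608 nuclear regions of the pooled list, 32.0% held such a site in a window of the same length, and of the 303 nuclear thresholded regions 88.8% did. All are read 5′ to 3′ on the plus strand of ce11, from the RefSeq copy of the assembly.
egl-27, intron, pooled rank 279, chrII:6842832-6842932: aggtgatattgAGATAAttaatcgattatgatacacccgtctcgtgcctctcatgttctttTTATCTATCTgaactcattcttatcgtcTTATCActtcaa
egl-27, intron, pooled rank 382, chrII:6836898-6836998: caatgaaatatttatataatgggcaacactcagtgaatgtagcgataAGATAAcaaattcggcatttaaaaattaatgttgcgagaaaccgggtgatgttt
nob-1, intron, pooled rank 350, chrIII:12082373-12082473: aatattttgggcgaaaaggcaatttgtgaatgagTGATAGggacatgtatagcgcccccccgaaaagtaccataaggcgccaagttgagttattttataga
nob-1, upstream, pooled rank 421, chrIII:12084855-12084955: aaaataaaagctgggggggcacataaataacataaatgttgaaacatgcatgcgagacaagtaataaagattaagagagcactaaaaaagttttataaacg
wrm-1, upstream, pooled rank 1940, chrIII:5722046-5722146: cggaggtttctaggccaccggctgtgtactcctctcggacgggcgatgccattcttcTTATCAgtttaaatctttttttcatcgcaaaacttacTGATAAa
bar-1, upstream, pooled rank 1341, chrX:7172213-7172313: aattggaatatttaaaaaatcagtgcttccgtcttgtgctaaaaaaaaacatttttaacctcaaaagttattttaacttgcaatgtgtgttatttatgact
bar-1, upstream, pooled rank 2572, chrX:7171197-7171297: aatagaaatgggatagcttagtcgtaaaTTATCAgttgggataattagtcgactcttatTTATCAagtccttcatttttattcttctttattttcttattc
The egl-27 stretch of highest signal holds 4 sites, of which an adjoining pair overlaps in the run TTATCTATCT. The nob-1 upstream stretch and the bar-1 stretch of rank 1341 hold none.

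Of the 43 genes, 1 had a thresholded region (2.33%), against 342 of 19973 protein-coding genes (1.71%), a share near the background. That gene was egl-27. In the pooled list 24 members had a region (55.8%), against 40.2% of all genes, and their best regions had a median signal of 18.95, against 17.26 over the 8021 genes with a pooled region. The members were long genes, with a median body of 5126 bp against 2027 bp, and a longer gene has a wider window. Among genes with bodies under 5000 bp, 8 of 21 members (38.1%) and 35.4% of all genes had a pooled region. From 5000 to under 10000 bp the shares were 10 of 15 members (66.7%) and 59.2% of genes, and from 10000 bp on 6 of 7 members (85.7%) and 77.4% of genes. In the longest class egl-27 was the 1 of 7 members with a thresholded region, against 3.01% of genes. The other classes had 0 of 21 and 0 of 15 members, against 1.57% and 2.19% of genes. Counted by distance to a TSS alone, 20 members had a pooled region (46.5%, against 36.8% of genes) and 1 a thresholded one (against 1.58%). Best regions ranked within the first 2000 of the pooled list at 9 members (20.9%, against 9.24% of genes) and within the first 1000 at 4 members (9.30%, against 5.07%). The shares of all genes by rank, here and below, are not matched for gene length. These counts are descriptions, and no test was made of a list named with earlier results known.

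**Figure D1:**
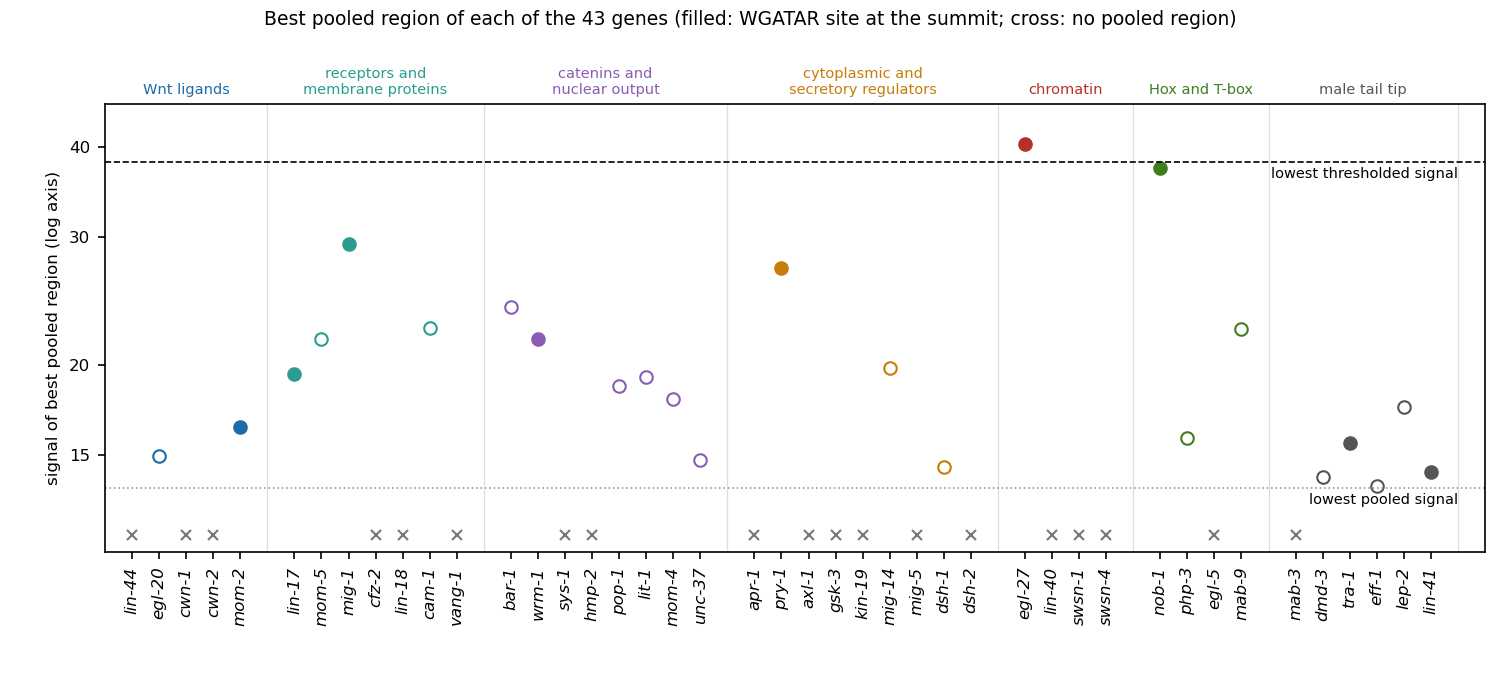
Signal of the best pooled region of each of the 43 genes (vertical log axis, no stated unit), grouped by role; filled points have a WGATAR site within 50 bp of the summit, and crosses mark the 19 genes with no pooled region. Only egl-27, at 40.5, lies above the dashed line of the lowest thresholded signal, 38.2, and nob-1, at 37.5, lies just below it.

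**Figure D2:**
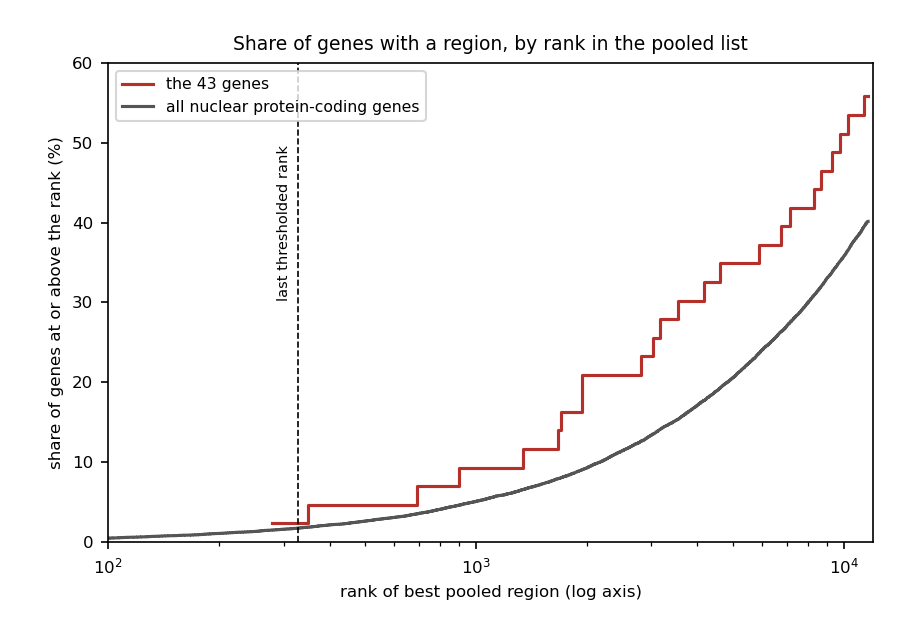
Share of genes (vertical, percent) whose best pooled region lies at or above a rank (horizontal log axis), for the 43 genes and for all 19973 nuclear protein-coding genes. At the last thresholded rank, 328, the shares are 2.33% and 1.71%, and over the whole list they reach 55.8% and 40.2%.

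The chromatin genes held the member with most signal. The gene egl-27, on chromosome II at 6835008 to 6847908, encodes a protein related to the MTA subunits of the NuRD complex and is known from T cell polarity. Its thresholded region, at chrII:6842722-6843041, lay in an intron 478 bp downstream of the nearest of its start sites, with a pooled signal of 40.5 and rank 279. In replicate 2 it had a signal of 33.1 and rank 143, the best of the 43 genes, while in replicate 1 the overlapping region had a signal of 7.82 and rank 6786. The replicates thus placed it far apart, high in replicate 2 and outside the first 328 in replicate 1.

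The gene egl-27 had 7 pooled regions, more than any other member, and 0.21% of all genes had 7 or more. Intron regions with pooled signals of 36.3 (rank 382) and 30.3 (rank 629) stood beside the thresholded one. With these, 3 of its regions fell within the first 1000, as at 0.0751% of all genes. The gene has a window of 14901 bp and 14 annotated start sites, against a median window of 4182 bp over all genes. The shares of all genes given here are not matched for length. The region of rank 382 had rank 3297 in replicate 1 and 311 in replicate 2, and that of rank 629 had no overlapping region in replicate 1 and rank 278 in replicate 2. All 3 held a WGATAR site. In replicate 1 the best region of the gene was a different one, at chrII:6837771-6838114 over a coding exon (signal 13.5, rank 748), with no overlapping region in replicate 2 and no site. Of the other chromatin genes, lin-40, whose product is also MTA-related, and swsn-1, a SWI/SNF subunit gene, had no pooled region. In the replicates the best ranks of lin-40 were 28095 and 10198, and those of swsn-1 were 13692 and 6607. The SWI/SNF subunit gene swsn-4 had no region in any list. Thus 1 of 4 chromatin genes had a pooled region, against 40.2% of all genes. Here and for the roles and lists below, the 40.2% is over genes of all lengths. The 4 chromatin genes have bodies from 5139 to 12901 bp, in the classes where 59.2% and 77.4% of genes had a pooled region.

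The posterior Hox gene nob-1 came next. It lies on chromosome III at 12077793 to 12084316, and its best region, in an intron at chrIII:12082263-12082582, had a pooled signal of 37.5 and rank 350, with 21 regions between it and the last thresholded one. Its signal was 12.98 in replicate 1 (rank 902) and 25.4 in replicate 2 (rank 337). It was the only one of the 43 genes with a pooled region that was overlapped by a region within the first 1000 of each replicate, as 1.82% of all genes were. A second region of nob-1 lay upstream, 589 bp from the nearest start site, at chrIII:12084745-12085064, with a pooled signal of 35.1 and rank 421. There the order was the other way round, with rank 211 in replicate 1 (signal 18.9) and rank 1284 in replicate 2 (signal 17.2). Both nob-1 regions were thus found in each replicate, with a different one in the lead. With egl-27, nob-1 made up the 2 members with 2 or more pooled regions in the first 1000 (4.65%, against 0.426% of all genes). This share of all genes is likewise not matched for length.

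**Figure D3:**
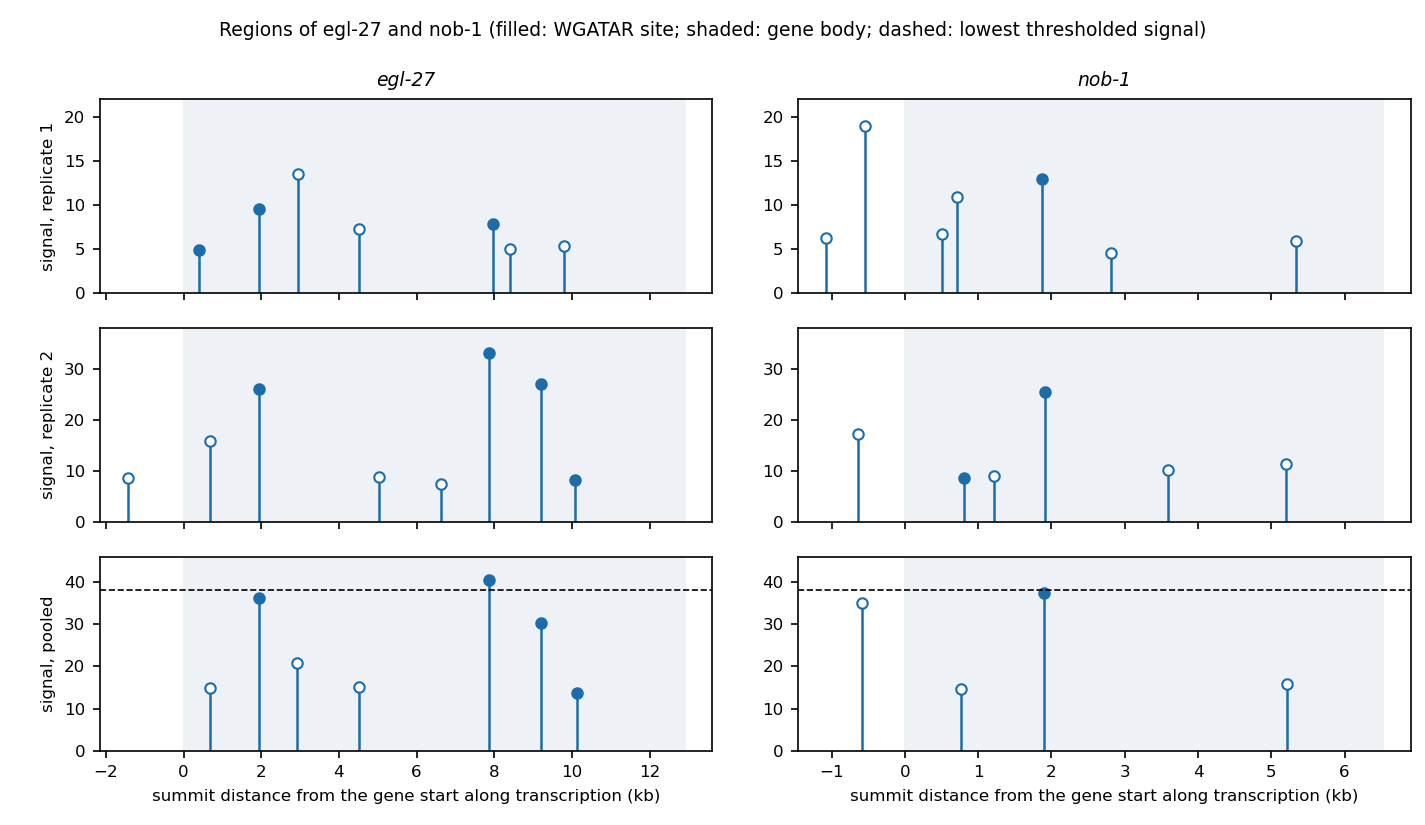
Signal of every region of egl-27 (left) and nob-1 (right) in replicate 1, replicate 2 and the pooled list (vertical, no stated unit, a scale of its own in each list) against the distance of the summit from the gene start in kb. The 3 leading egl-27 regions stand out in replicate 2, at 33.1, 27.01 and 26.1. In replicate 1 those of 33.1 and 26.1 are present at 7.82 and 9.51, below the 13.5 of another region, and that of 27.01 is absent. The intron and upstream regions of nob-1 are present in both replicates.

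Of the other tail patterning factors, mab-9, a T-box gene of the posterior, had a best region 164 bp upstream of a start site, at chrII:515700-516019, with a pooled signal of 22.4 and rank 1707. It held no WGATAR site, and replicate 1 gave it a signal of 9.999 (rank 2695) and replicate 2 one of 11.7 (rank 5845). The best region of mab-9 in replicate 1 was another one, at chrII:518045-518388 (rank 823), where replicate 2 had none. The Hox gene php-3, which lies beside nob-1, had its only pooled region (signal 15.8, rank 6752) inside the nob-1 gene, so that this region counts for both. The Hox gene egl-5 had no pooled region, and its best ranks in the replicates were 10554 and 12738. Of the 4 Hox and T-box members, 3 thus had a pooled region, against 40.2% of all genes.

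Among the receptors and related membrane proteins, 4 of 7 had a pooled region, against 40.2% of all genes, and the best region of each of the 4 had a signal from 19.4 to 29.4. The Frizzled gene mig-1 led with a region 182 bp upstream of a start site at chrI:957478-957797, of signal 29.4 and rank 692. In replicate 2 it had a signal of 25.2 and rank 353, and in replicate 1 a signal of 7.82 and rank 6783, so that it too was high in replicate 2 alone. The Ror receptor gene cam-1 had a best pooled region in an intron at chrII:9303138-9303457, with a signal of 22.5, rank 1671 and no WGATAR site. Replicate 1 gave it a signal of 7.71 (rank 7107) and replicate 2 one of 14.3 (rank 2667). Its best regions in the replicates were other ones, with rank 292 at chrII:9300973-9301316 in replicate 1, where replicate 2 had none, and rank 365 at chrII:9309539-9309862 in replicate 2, where replicate 1 had rank 23748. Both of these held a WGATAR site, and so did the pooled region over the latter (signal 21.6, rank 1953). The Frizzled gene mom-5 had a region without a WGATAR site 181 bp upstream, at chrI:9965233-9965552 (signal 21.7, rank 1941). Its signal was 5.76 in replicate 1 (rank 15876) and 14.6 in replicate 2 (rank 2466). A further pooled region of mom-5, of signal 20.1 and rank 2624, held 2 sites and was overlapped in each replicate. It also lay in the window of algn-10.

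The receptor of the T cell, lin-17, had a best pooled region 1270 bp upstream with a signal of 19.4 and rank 3025, at chrI:2705453-2705772, and a WGATAR site 40.5 bp from the summit. Replicate 2 had it with a signal of 12.2 and rank 5050, and replicate 1 had no region there. Its best ranks anywhere in the gene window were 5110 in replicate 1 and 4190 in replicate 2, at different places. A second pooled region of lin-17, in an intron at chrI:2709396-2709715 (signal 14.2, rank 9727), held a WGATAR site 20.5 bp from the summit. It was overlapped in both replicates, with rank 5110 in replicate 1 and 12105 in replicate 2. The Frizzled gene cfz-2 and the planar polarity gene vang-1 had regions in each replicate and none in the pooled list, and the Ryk receptor gene lin-18 had none in any list.

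Of the ligand genes, 2 of 5 had a pooled region, a share at the background of 40.2% of all genes. For lin-44, the Wnt of the T cell, replicate 1 had an intron region of signal 5.60 and rank 16919, and replicate 2 had a region 375 bp upstream of signal 8.28 and rank 17384. These did not overlap, and the pooled list had none. The Wnt genes mom-2 and egl-20 had pooled regions of signal 16.4 (rank 5891) and 14.9 (rank 8300). The Wnt genes cwn-1 and cwn-2 had none in the pooled list. The best ranks of cwn-1 in the replicates were 21399 and 22372, and cwn-2 had a region in replicate 2 alone (rank 7432). That of mom-2 lay just below the median signal of the pooled list, 16.44, and that of egl-20 further below it.

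Of the catenins and the genes of nuclear output, 6 of 8 had a pooled region, against 40.2% of all genes, with best signals from 14.7 to 24.0. The beta-catenin gene bar-1, which acts in canonical Wnt signalling, had 2 upstream regions. The one of signal 24.0 and rank 1341, at chrX:7172103-7172422 and 1638 bp from the start, had no WGATAR site, no overlapping region in replicate 1, and a signal of 18.8 with rank 937 in replicate 2. The one of signal 20.2 and rank 2572, 622 bp from the start, was overlapped in both, with rank 829 in replicate 1 and 1899 in replicate 2, and holds a pair of TTATCA sites in the stretch shown above. The beta-catenin gene wrm-1, whose product acts with the kinase LIT-1 on POP-1, had an upstream region at chrIII:5721936-5722255 (signal 21.7, rank 1940) with 2 WGATAR sites. It had a signal of 11.9 and rank 1279 in replicate 1 and a signal of 14.6 and rank 2469 in replicate 2. A second upstream region of wrm-1, of pooled rank 5813, held no WGATAR site. It had no overlapping region in replicate 1 and rank 2608 in replicate 2. The kinase gene lit-1 had a best region in an intron at chrIII:13707906-13708225 (signal 19.2, rank 3157), without a WGATAR site, of signal 5.16 in replicate 1 (rank 19906) and 11.62 in replicate 2 (rank 6097). In replicate 1 the best region of lit-1 was another one, at chrIII:13718078-13718421 (rank 3112), where replicate 2 had none. The TCF gene pop-1, the kinase gene mom-4 and the Groucho gene unc-37 had signals of 18.7, 17.9 and 14.7, and the last pair of these regions also lay in the windows of col-64 and fnci-1. The beta-catenin genes sys-1 and hmp-2 had no pooled region. The best ranks of sys-1 were 17667 and 3247 in the replicates, and hmp-2 had a region in replicate 2 alone (rank 9503).

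Of the cytoplasmic and secretory regulators, 3 of 9 had a pooled region, a share near the 40.2% of all genes. The Axin gene pry-1 had one 505 bp upstream of a start site at chrI:14179705-14180024, with signal 27.2 and rank 897. Its signal was 8.66 in replicate 1 (rank 4760) and 16.8 in replicate 2 (rank 1395), and the leading regions of the gene in the replicates overlapped. The Wntless gene mig-14 had a region over a coding exon at chrII:13745083-13745402 (signal 19.8, rank 2802), without a WGATAR site, of signal 7.66 in replicate 1 (rank 7243) and 11.8 in replicate 2 (rank 5739). In replicate 1 the best region of mig-14 was another one, at chrII:13745800-13746143 (rank 655), where replicate 2 had none. The Dishevelled gene dsh-1 had a best signal of 14.4. The genes axl-1 (Axin-like), gsk-3, kin-19 (casein kinase), mig-5 and dsh-2 (both Dishevelled) had regions in replicate lists alone, of which kin-19 and dsh-2 had them in replicate 1 only and mig-5 in replicate 2 only. The APC-related gene apr-1 had none in any list.

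The male tail tip genes had a pooled region at 5 of 6 members, against 40.2% of all genes, with best signals of 13.6 to 17.5, where the pooled list had a lowest signal of 13.5 and a median of 16.44. The highest, and the only one of the 5 above that median, was that of lep-2, a Makorin gene, with rank 4606 in the 5′ UTR and inside the window of its neighbour egrh-2. The sex determination gene tra-1 had a region 452 bp upstream (signal 15.6, rank 7146) with a WGATAR site 7.5 bp from the summit, with rank 2458 in replicate 2 and no overlapping region in replicate 1. The best ranks of lin-41, dmd-3 and eff-1 in the pooled list were 9768, 10282 and 11320, and mab-3 had none, with best ranks of 21471 and 16095 in the replicates. Replicate 1 had no region overlapping the best pooled region of lep-2, dmd-3 or eff-1 either, and at lin-41 it had one of rank 23694. All tail tip genes but eff-1 have bodies over 5000 bp. The share with a pooled region was 59.2% of genes from 5000 to under 10000 bp and 77.4% from 10000 bp on.

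Within a cut at 328 regions, the replicates named different members. Among the first 328 regions of replicate 1 lay regions of 2 members (4.65%, against 1.72% of genes), nob-1 and cam-1, and among those of replicate 2 of 1 member (2.33%, against 1.75%), egl-27. Just beyond the cut in replicate 2 lay nob-1 (rank 337), mig-1 (rank 353) and cam-1 (rank 365), while the best rank of egl-27 in replicate 1 was 748. Regions were found at 37 members in replicate 1 (86.0%, against 70.8% of genes), at 38 in replicate 2 (88.4%, against 65.5%), and at 35 in each (81.4%, against 52% of genes). At 21 members (48.8%, against 31.7%) a region of replicate 1 overlapped one of replicate 2. These shares of all genes are not matched for gene length. The best regions of the replicates overlapped at 5 of the 35 (14.3%), namely mom-5, mig-1, wrm-1, pry-1 and php-3, against 29.3% of genes with a region in each. Of genes with 2 or more regions in each replicate, the shares were 3 of 23 members (13%) and 26.7%. The genes nob-1, egl-27, cam-1 and bar-1 had a best region within the first 1000 of each replicate (9.30%, against 2.10% of genes), and at none of the 4 were these best regions at the same place. The 2.10% is not matched for gene length either. Over the 27 pooled regions of members that were overlapped in both replicates, Spearman's correlation of signal between replicates was 0.27, a description over regions that come from the same libraries. The best pooled region was overlapped in each replicate at 17 of the 24 members (70.8%, against 56.3% of genes). Replicate 2 overlapped it at 23 and replicate 1 at 18, for which no share of all genes was computed.

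**Figure D4:**
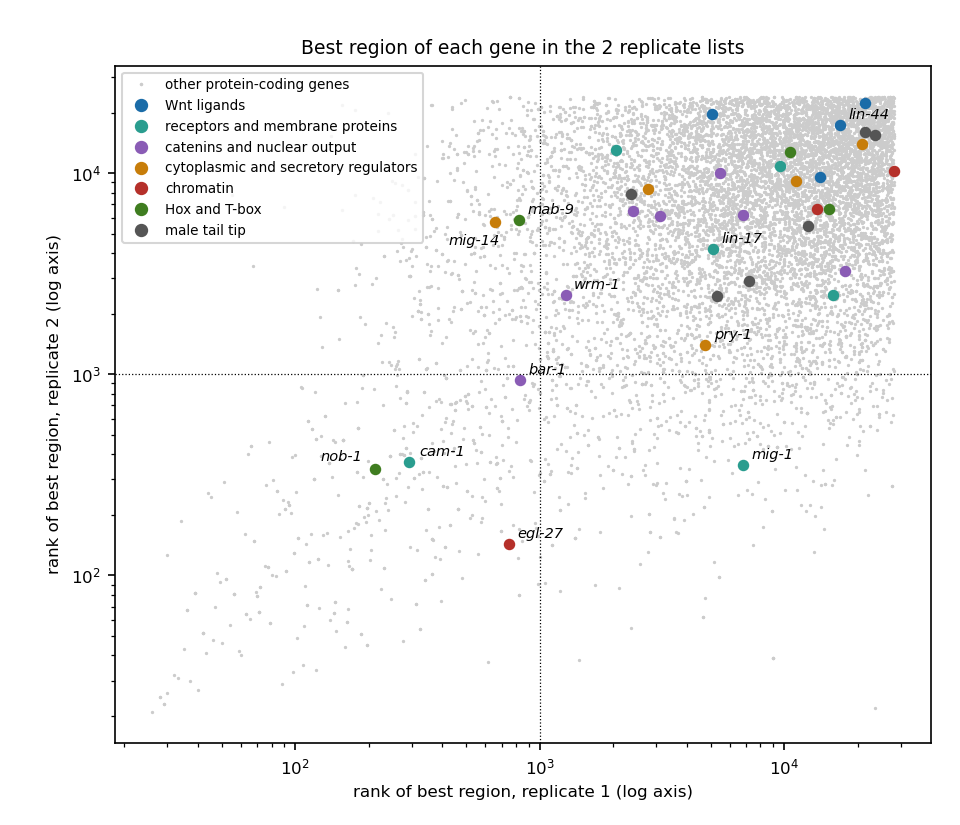
Rank of the best region of each gene in replicate 1 (horizontal log axis) and replicate 2 (vertical log axis), for the 35 members with a region in each, coloured by role, over the other protein-coding genes in grey; dotted lines mark rank 1000. Below both lines stand nob-1, cam-1, bar-1 and egl-27, and lin-44 lies at ranks 16919 and 17384.

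A WGATAR site stood within 50 bp of the summit at the best pooled region of 9 of the 24 members (37.5%), against 35.2% of all genes with a pooled region. All 4 members with a best rank within 1000, egl-27, nob-1, mig-1 and pry-1, had a site, against 75.1% of such genes. Between ranks 1000 and 2000 it was 1 of 5 members, wrm-1, against 43.3% of genes, and beyond rank 2000 it was 4 of 15 (26.7%), against 27.5%. The best regions of bar-1, cam-1, mom-5 and mab-9, between ranks 1000 and 2000, held none. Of these genes all but mab-9 had a site at another pooled region, and mab-9 had none at any of its 3 pooled regions. The rank bounds were chosen after the values were seen. The nearest site lay 13.5 bp from the summit at egl-27 and nob-1, 10.5 bp at pry-1 and 35.5 bp at mig-1, measured to the middle of the site. By position, 15 of the 24 best regions lay upstream of the gene (62.5%, against 49.6% of genes) and 7 lay in an intron (29.2%, against 28.9%). No member had its best region downstream, as 10.1% of genes did. The 2000 bp rule reaches past the gene end chiefly in short genes, and the members are long, so the upstream shares are not directly comparable.

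Other genes of the same processes were counted by the same rule. Of 16 further Wnt genes, 10 had a pooled region (against 40.2% of all genes) and 1 a thresholded one (against 1.71%), mom-1, which encodes the Porcupine-related protein needed for Wnt secretion. Its region lay in an intron at chrX:6296495-6296814 with a signal of 44.5, pooled rank 222, rank 479 in replicate 1 and rank 97 in replicate 2, and without a WGATAR site. Of 29 further genes of the seam, the T lineage and the male tail, 17 had a pooled region and 3 a thresholded one, beside the same 40.2% and 1.71%. These were the Meis-related gene psa-3, which acts in the T cell (signal 103, ranks 33 and 31 in the replicates), the Meis-family gene unc-62 (signal 39.3, ranks 485 and 475) and the epidermal GATA factor gene elt-3 (signal 38.4, ranks 3878 and 312). Within the first 1000 pooled ranks lay 3 of the 16 and 6 of the 29, beside the 5.07% of all genes.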

How the data were processed

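ChIP-seq region lists of 2 libraries were used, 1 per replicate, 1 pooled and 1 thresholded, on ce11. The authors called the regions from alignments of the libraries and a control, per the labels and the file listing; the caller and its settings are not given in the sources used here. The control library was not analysed. The deposited signal of a region has no stated scale. The deposited lists also give a −log10 q value, from 0.0175 to 1.35 in the pooled list, which was not used to order regions. At the best pooled regions of members it ran from 0.0185 at eff-1 to 1.3 at nob-1, and it was 0.158 at lin-17. Low values give little support, and the pooled list includes background, so a pooled region alone does not show binding. The ce10 lists were not used.

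Summits were assigned to protein-coding genes of Ensembl release 115, whose assembly WBcel235 has ce11 coordinates, when they lay in the gene body or within 2000 bp of the start of any transcript. Regions were ranked by signal in each list, mitochondrial regions included, and overlapped when they shared at least 1 bp. Computation used Python 3.11.15, numpy 2.4.6, pandas 2.3.3 and matplotlib 3.10.9, and the assignment and site search were checked on simulated data. The members and lists were chosen with earlier results of these data known, so counts are set beside those of all genes and no test was made. Named with full values were members with a thresholded region, the 12 of highest pooled signal, and lin-44 and lin-17; the others were given by count, range or rank. Alternatives changed the distance, the gene body, the overlap, the site search and the replicate used.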

Additional observations from a re-analysis of the deposited data

How the results depend on the processing

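The count of members with a thresholded region stayed at 1 with distances of 1000 bp and 5000 bp and without the gene body, while the share of all genes was 1.27%, 3.41% and 1.58%, so that the members' 2.33% lay above it at 1000 bp and without the body and below it at 5000 bp. Taken from the first 328 regions of a single replicate it ran from 1 (without replicate 1: egl-27) to 2 (without replicate 2: nob-1 and cam-1, with egl-27 lost), against 1.75% and 1.72% of genes. The count with a pooled region, 24, ran from 20 to 32 under the other distances and without the gene body, being 20 without the body (36.8% of all genes), 22 at 1000 bp (31.4%) and 32 at 5000 bp (62.8%), and from 37 to 38 in the longer lists of single replicates (70.8% and 65.5% of genes). Of 35 members with a region in each replicate, 21 had regions that overlapped by at least 1 bp and 17 by at least 50% of the shorter. The median best signal, 18.95, ran from 18.3 to 18.95 under the 3 alternatives; it was not computed for single replicates, whose signals have other scales. Best regions with a GATA site numbered 9 of 24, 14 within 100 bp of the summit, where the window is wider, and 7 to 12 under the other settings, among them the single replicates (10 of 38 and 11 of 37), added after the data were seen. No share of all genes was computed for the 50% overlap or the alternative site settings, so those counts describe the members alone. No paired analysis was possible because there is a single group. With unknown depth and 2 replicates whose ranks at egl-27 and mig-1 lie far apart, single ranks carry little precision.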
